A study of Mus musculus with 8 samples.

Results

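Genes for 10 inflammatory signals were followed in B16-OVA, an established line of mouse B16F10 melanoma cells carrying ovalbumin as a model antigen. They are the CC chemokine genes Ccl2, Ccl5 and Ccl7, the CXC chemokine genes Cxcl1 and Cxcl16, the cytokine genes Csf1, Lif, Il6 and Il15, and the receptor gene Il15ra. The genes were taken by symbol, 10 of 57353 rows of the expression table, and the chemokines that signal through CXCR3 were left aside. These genes and the lists of related genes were chosen with earlier results of these data known. The shares over all tested genes given beside them are therefore a description and not a test. RNA was sequenced from 4 Control libraries of untreated cells and from 4 HMF libraries. The groups rest on the sample titles, because the deposited treatment label is the same for all 8 libraries. For HMF, cells took up magnetic rod-shaped micromotors (MagRMs) during 24 h of incubation before the high-frequency magnetic field was applied. Collection was 6 h after the treatment. All cells were labelled WT, and since each HMF library combines micromotors with the field, their effects cannot be told apart. The labels do not say whether replicates were separate cultures, so the p-values reflect a spread between libraries that may be technical. In bulk RNA, fewer cells that express a gene and less RNA per cell cannot be told apart.

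Chemokines are small secreted proteins that guide leukocytes along a gradient through G protein-coupled receptors. CC chemokines such as those encoded by Ccl2 and Ccl7 draw monocytes, that of Ccl5 draws T cells and monocytes, and that of Cxcl1 draws neutrophils. Csf1 encodes the growth factor on which macrophages depend, and Lif and Il6 encode cytokines that signal through the shared receptor chain gp130. IL-15 is held on the cell surface by its alpha receptor and presented to natural killer cells and CD8 T cells. Many of these genes are classical targets of the transcription factor NF-kB, and Il15 and Il15ra are also known to respond to interferons.

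Promoter windows of the RefSeq annotation (build GRCm38.p6, 250 bases before to 50 after the gene start) were found for 5 of the 10 genes, namely Cxcl1, Csf1, Lif, Il6 and Il15ra, the last with 2 starts. There was none for Ccl2, Ccl5, Ccl7, Cxcl16 and Il15. The 250 bases before the start are given for the 3 genes in which the NF-kB consensus was found, marked in capitals, to show the motif in its context. A stretch of Il15ra after its start is shown with its IRF core in capitals, AANNGAAA, the core consensus of interferon regulatory factors. Each sequence reads 5′ to 3′ on the strand of the gene, and both strands were searched.
Cxcl1 (chr5:90890995-90891244, + strand): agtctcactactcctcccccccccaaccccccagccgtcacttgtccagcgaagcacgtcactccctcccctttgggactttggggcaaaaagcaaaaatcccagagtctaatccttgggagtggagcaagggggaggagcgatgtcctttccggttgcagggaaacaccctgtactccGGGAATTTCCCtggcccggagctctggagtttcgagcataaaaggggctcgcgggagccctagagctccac
Csf1 (chr3:107760470-107760719, - strand): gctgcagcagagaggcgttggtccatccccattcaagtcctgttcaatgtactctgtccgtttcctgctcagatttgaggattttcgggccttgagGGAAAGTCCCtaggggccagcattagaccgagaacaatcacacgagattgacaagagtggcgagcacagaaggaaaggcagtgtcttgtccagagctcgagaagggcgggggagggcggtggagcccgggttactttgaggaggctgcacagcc
Il6 (chr5:30012864-30013113, + strand): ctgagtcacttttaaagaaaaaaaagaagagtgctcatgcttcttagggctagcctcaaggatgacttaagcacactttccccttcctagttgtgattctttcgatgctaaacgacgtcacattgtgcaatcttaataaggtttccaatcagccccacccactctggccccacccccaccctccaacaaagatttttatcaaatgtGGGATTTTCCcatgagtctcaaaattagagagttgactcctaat
Il15ra (chr2:11705730-11705759, + strand, 19 to 48 bases after the start): taaagcaaAAGCGAAAgcgaatactcctta

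Counted from the gene start, the NF-kB consensus lay at -71 to -62 and, overlapping it on the other strand, at -70 to -61 in Cxcl1. It lay at -44 to -35 in Il6 and, on the opposite strand, at -154 to -145 in Csf1. It occurs in 4.51% of all 32851 windows of 300 bases. The IRF core occurs in 23.9% of them and was found in both Il15ra windows, at 27 to 34 in the one shown and at -187 to -180 in the other. The AP-1 motif TGANTCA, found in 7.81% of all windows, was present in Lif (-228 to -222), in Il6 (-249 to -243) and in 1 Il15ra window (-30 to -24). The motifs were chosen after the sequences were seen, and a match describes the letters only.

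The table holds read counts per gene and the totals ranged from 13973961 to 19295358 per library. HMF 4 had the highest total, and it stood apart from the other HMF libraries for several of the genes described here, so the log2 fold changes of the members, and of some related genes, are given with and without it. The 7 melanoma line markers were strongly expressed, and their sum was lower in HMF, at 16432 to 18436 CPM in Control and 12417 to 15226 in HMF. Of them 4 fell by edgeR on the log2 scale, Tyr by 0.65, Mitf by 0.55, Dct by 0.37 and Tyrp1 by 0.32, and Pmel (-0.17), Mlana (-0.06) and Sox10 (0.00488) did not pass. Of all tested genes, 13.0% were called lower and 13.7% higher in HMF. HMF 4 was at 0.538 times the mean of the other HMF libraries for Tyr and at 0.577 times for Mitf. Of 13 macrophage markers, Adgre1 and Itgam had no count in any library. The summed level of that list was 8.81 to 13.0 CPM in Control and 15.0 to 16.8 in HMF. Cd68, a lysosomal protein gene, made up 8.35 of a mean of 10.8 and 13.8 of a mean of 16.1. It rose by 0.72 on the log2 scale (edgeR adjusted p = 0.00371), and Lyz2, the only other tested macrophage marker, did not pass (-0.47). Of 10 T and NK cell markers 9 had no count, and the sum was 0.281 to 0.473 CPM in Control and 0.214 to 0.752 in HMF. The 8 fibroblast markers summed to 15.0 to 31.3 CPM in Control and to 10.3 to 14.5 in HMF, but they did not move together. On the log2 scale Col1a2 fell by 1.49 and Fap rose by 1.75 (edgeR adjusted p = 0.00274 and 0.0167). The 5 endothelial markers summed to 11.9 to 15.4 and to 10.2 to 12.6. The part of the melanoma markers and of other cell types in the results below was not tested.

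The comparison of HMF with Control asks how these transcripts differ after the treatment. Of the 10 genes, 9 passed the count filter and 7 of them rose, namely Ccl2, Ccl5, Cxcl1, Csf1, Lif, Il6 and Il15ra. None fell, also at an unadjusted p below 0.05 (0 genes) and with DESeq2 (0). Cxcl16 and Il15 did not pass the test, and Ccl7 was too low to test. Calls used an adjusted p below 0.05 in edgeR's quasi-likelihood test with Benjamini-Hochberg adjustment over all 15082 genes tested (n = 4 per group). Over all tested genes 26.7% were called, 13.7% as higher and 13.0% as lower in HMF. This split depends on the scaling, at 2073 rises and 1957 falls with TMM factors against 1743 and 2435 with library size alone. The median log2 fold change was 1.86 over the 9 tested genes and -0.02 over all tested genes. The 7 genes that rose were also those in which every HMF library lay above every Control library, which held for 14.7% of all tested genes. Without HMF 4 the same number, 7, were called higher and none lower.

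**Figure D1:**
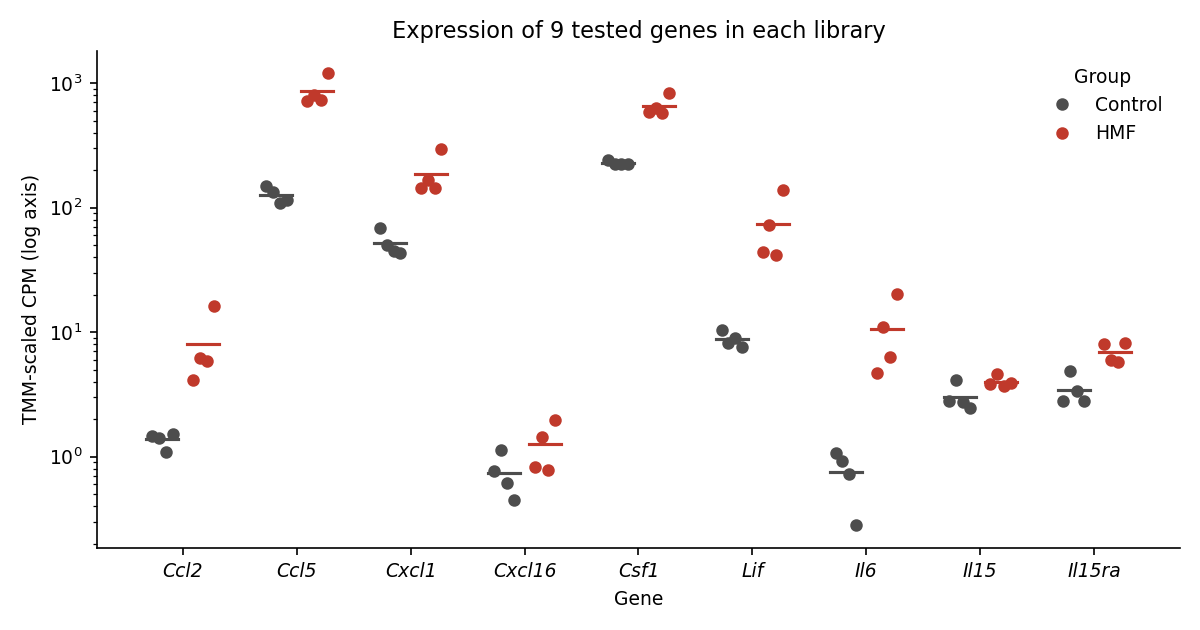
TMM-scaled CPM (log axis) of the 9 tested genes in each of the 4 Control and 4 HMF libraries, drawn from replicate 1 on the left to 4 on the right, with a line at each group mean. The groups do not overlap for 7 genes and overlap for Cxcl16 and Il15, and Ccl7 is not drawn because 7 libraries had no count.

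Among the CC chemokines, Ccl5 was the most abundant. Expression is given as CPM, the count relative to the TMM-scaled library size. Ccl5 was at 150, 132, 109 and 114 CPM in Control 1 to 4 and at 716, 806, 731 and 1197 CPM in HMF 1 to 4. All HMF libraries stood far above all Control libraries, with HMF 4 the highest. The means were 126 ± 18.5 and 863 ± 227 CPM (SD, n = 4). The log2 fold change was 2.77 ± 0.17 (SE, edgeR adjusted p = 7.91e-07), and 2.57 without HMF 4.

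Ccl2, which encodes the main monocyte attractant, rose from a low level. Its CPM was 1.48, 1.42, 1.10 and 1.52 in Control 1 to 4 and 4.11, 6.15, 5.88 and 16.2 in HMF 1 to 4. The groups were separate, but HMF 4 was at 3.01 times the mean of the other HMF libraries. The means were 1.38 ± 0.192 and 8.09 ± 5.49 CPM (SD, n = 4), with a log2 fold change of 2.56 ± 0.42 (SE, edgeR adjusted p = 0.00113). Without HMF 4 the log2 fold change was 1.96 (edgeR adjusted p = 3.07e-05), so the fold itself was smaller by a factor of 1.52. Ccl7, which encodes another monocyte chemoattractant, had a single count in all 8 libraries, in HMF 1. A level of up to 0.160 to 0.213 CPM, that of 3 counts depending on the library, could have gone undetected, counting error only, and no fold is given. The exact permutation test on CPM (two-sided) gave p = 1. With a single count no other p is possible, so that test cannot compare the groups.

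The within-library ratio of Ccl5 to Ccl2 counts, which does not depend on scaling, averaged 6.49 ± 0.196 for Control and 6.90 ± 0.511 for HMF on the log2 scale (SD, n = 4). Its difference of 0.42 was within the spread (two-sided exact permutation test, p = 0.171, and 0.171 when adjusted over 2 ratios). In HMF 1 to 4 the ratio was 7.43, 7.03, 6.95 and 6.20, and in Control 1 to 4 it was 6.64, 6.50, 6.60 and 6.20. HMF 4 thus lay with the Control libraries, and the other HMF libraries above all of them. Without HMF 4, left out after its ratio was seen, the difference was 0.65 and passed (exact permutation test, two-sided, adjusted p = 0.0286). That is the smallest p the remaining libraries allow. Over all libraries left out in turn, the adjusted p of this test ranged from 0.0286 to 0.371.

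The CXC chemokine gene Cxcl1, a neutrophil attractant acting through CXCR2, was well expressed in untreated cells and rose. It was at 69.2, 49.7, 45.0 and 43.0 CPM in Control 1 to 4 and at 144, 166, 143 and 297 CPM in HMF 1 to 4. HMF 1 to 3 lay close together, and HMF 4 was 1.96 times their mean. The log2 fold change was 1.86 ± 0.24 (SE, n = 4 per group, edgeR adjusted p = 2.02e-04), and 1.55 without HMF 4. Cxcl16 encodes a membrane-anchored ligand of CXCR6 that is shed by ADAM10. With 8 to 37 counts per library it just passed the filter, at 0.769, 1.14, 0.610 and 0.450 CPM in Control 1 to 4 and 0.822, 1.44, 0.780 and 1.98 CPM in HMF 1 to 4. The groups overlapped, and the log2 fold change of 0.81 ± 0.38 (SE) did not pass (edgeR adjusted p = 0.147; 0.47 without HMF 4).

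Csf1, the macrophage growth factor gene, had narrow groups. Its CPM was 242, 225, 223 and 223 in Control 1 to 4 and 585, 636, 577 and 829 in HMF 1 to 4. The lowest HMF library was far above the highest Control library. From means of 228 ± 9.06 and 657 ± 118 CPM (SD, n = 4), the log2 fold change was 1.53 ± 0.11 (SE, edgeR adjusted p = 2.42e-06), and 1.39 without HMF 4.

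Lif and Il6, cytokine genes of the gp130 family, both rose. Lif was at 10.4, 8.17, 8.97 and 7.54 CPM in Control 1 to 4 and at 43.9, 72.4, 41.5 and 139 CPM in HMF 1 to 4. The log2 fold change was 3.09 ± 0.37 (SE, edgeR adjusted p = 1.22e-04) and 2.58 without HMF 4. Il6 was very low in untreated cells, with 18, 13, 12 and 5 counts in Control 1 to 4 against 68, 160, 89 and 382 in HMF 1 to 4. As CPM these were 1.06, 0.924, 0.732 and 0.281 against 4.66, 10.9, 6.31 and 20.4. Every HMF library was thus above every Control library, while the HMF libraries themselves spanned a wide range. The log2 fold change of Il6 was 3.84 ± 0.53 (SE, edgeR adjusted p = 3.18e-04), and 3.29 without HMF 4.

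The IL-15 pair differed in its calls. Il15ra was at 2.78, 4.83, 3.36 and 2.81 CPM in Control 1 to 4 and at 8.09, 5.95, 5.74 and 8.18 CPM in HMF 1 to 4. The groups were separate, and the log2 fold change of 1.04 ± 0.21 (SE, n = 4 per group) passed (edgeR adjusted p = 0.00355; 0.95 without HMF 4). Il15 was at 2.78, 4.12, 2.75 and 2.48 CPM in Control 1 to 4 and at 3.84, 4.58, 3.69 and 3.90 CPM in HMF 1 to 4. Control 2 lay among the HMF libraries, and the log2 fold change of 0.41 ± 0.18 (SE) did not pass (edgeR adjusted p = 0.128; 0.43 without HMF 4). Without Control 2 it was 0.59 and passed (edgeR adjusted p = 0.0249). The log2 ratio of Il15ra to Il15 counts within a library averaged 0.17 ± 0.124 for Control and 0.78 ± 0.341 for HMF (SD, n = 4). The difference of 0.61 was higher in 4 of 4 HMF libraries and had the smallest p that 4 against 4 allows, 0.0286, but 0.0571 when adjusted over 2 ratios (two-sided exact permutation test). So a difference in the response of receptor and ligand was not shown over all libraries. Without HMF 4 the difference was smaller, 0.52, with an adjusted p of 0.0286 (two-sided exact permutation test), which is lower because the other ratio of the pair of tests then also reached 0.0286. Leaving out the other libraries in turn gave an adjusted p of 0.0571 to 0.114.

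The HMF libraries differed among themselves, and by how much depended on the gene. The CPM in HMF 4 over the mean of HMF 1 to 3 was 3.01 for Ccl2, 2.80 for Il6, 2.65 for Lif, 1.96 for Cxcl1, 1.95 for Cxcl16, 1.59 for Ccl5, 1.38 for Csf1, 1.24 for Il15ra and 0.968 for Il15. It exceeded 1.5 for 6 of the 9 tested genes and for 5.04% of all tested genes, where the median was 1. HMF 4 also had the highest total count and the highest mitochondrial share, 4.45% of counts against 2.47% to 3.57% in the other HMF libraries and 3.17% to 4.35% in Control. The part of these measures in its chemokine levels was not tested.

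**Figure D2:**
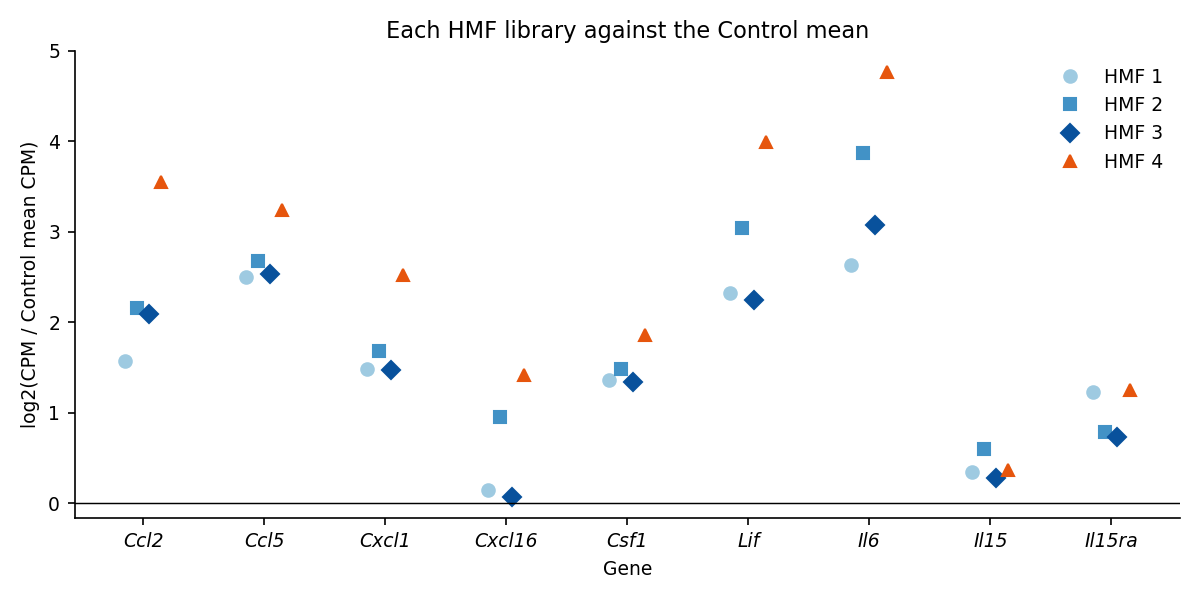
Log2 ratio of the CPM in each HMF library to the mean CPM of the 4 Control libraries for the 9 tested genes, with 1 symbol per HMF library. HMF 4 is the highest for 8 of the genes, and HMF 2 is the highest for Il15.

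Per gene length, on the deposited FPKM scale, the order of levels was the same in both groups except for Ccl2 and Il6. In Control, Ccl5 (133 ± 18.7 FPKM), Csf1 (43.8 ± 1.58) and Cxcl1 (28.0 ± 6.33) led (SD, n = 4), and their ranges did not overlap. Below them came Lif (2.04 ± 0.286 FPKM), Il15 (1.36 ± 0.324), Ccl2 (1.23 ± 0.165) and Il15ra (0.785 ± 0.216), where each range overlapped that of the next. Il6 (0.313 ± 0.141 FPKM) and Cxcl16 (0.249 ± 0.0971) came last, with overlapping ranges. In HMF, Ccl5 led at 882 ± 221 FPKM, followed by Csf1 (122 ± 20.4) and Cxcl1 (98.1 ± 37.3), whose ranges overlapped. Next came Lif (16.7 ± 10.04 FPKM), Ccl2 (6.95 ± 4.63), Il6 (4.26 ± 2.80), Il15 (1.74 ± 0.164), Il15ra (1.54 ± 0.285) and Cxcl16 (0.407 ± 0.180). By the means, Ccl2 changed places with Il15, and Il6 with Il15 and Il15ra. From Lif down to Il15ra each range overlapped that of the next gene. Among the 15082 tested genes ordered by mean FPKM, Ccl5 stood at place 283 in Control and 36 in HMF, and Il6 at 14311 and 8182.

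**Figure D3:**
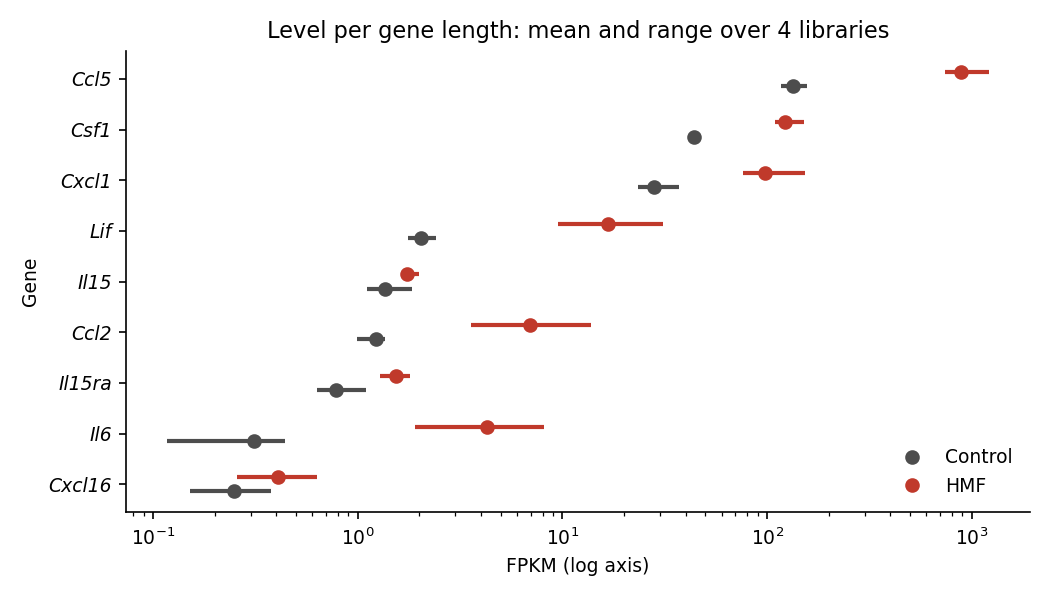
Deposited FPKM (log axis) of the 9 tested genes, with points at the mean and bars over the range of 4 libraries in Control and in HMF, ordered by the Control mean. Il6 moved from below Il15 and Il15ra in Control to above them in HMF.

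The genes for receptors of these signals were nearly all low in the melanoma cells. Of 14 receptor genes, 3 passed the count filter and 1 rose, where 13.7% of all tested genes were called higher. In none of the 4 lists of related genes named from here on, except the last, did a gene fall, be it by edgeR, by DESeq2 or at an unadjusted p below 0.05 (0 genes each). Il6st, which encodes gp130, averaged 103 ± 7.37 CPM in Control and 149 ± 3.47 in HMF (SD, n = 4) and rose by 0.53 ± 0.06 on the log2 scale (SE, edgeR adjusted p = 9.74e-05). The ligand-binding receptor genes Lifr (0.34) and Il6ra (0.03) did not pass. Of the 11 that were not tested, 5 had no count in any library, Ccr1, Ccr2, Ccr3, Ackr1 and Cxcr2. Cxcr6, the receptor gene for Cxcl16, had 4, 4, 1 and 1 counts in Control 1 to 4 and 4, 5, 3 and 3 in HMF 1 to 4.

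Of 25 other chemokine genes 7 were tested, and 4 rose (median log2 fold change 1.02 over the 7), against 13.7% of all tested genes. Ccl4, another CC chemokine gene, rose from 0.532 ± 0.270 to 8.31 ± 5.95 CPM (SD, n = 4), with 3 to 14 counts in Control and 51 to 314 in HMF. Its log2 fold change of 3.95 ± 0.57 (SE, edgeR adjusted p = 4.23e-04) was 3.34 without HMF 4. Cxcl2, a CXCR2 ligand gene like Cxcl1, rose by 1.56 ± 0.29 on the log2 scale, Ccl20, which encodes the ligand of CCR6, by 1.36 ± 0.32, and Cx3cl1, which encodes a membrane-bound chemokine, by 1.02 ± 0.19. Without HMF 4 the rises of Cxcl2 and Ccl20 were 1.16 and 0.94. Ccl25 (0.13), Ccl28 (0.18) and Ccl27a (-0.24) did not pass. Of the 18 that were not tested 9 had no count in any library.

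Among 31 other cytokine genes, 11 were tested and 6 rose (median log2 fold change 0.89), against 13.7% of all tested genes. Tnf, which encodes a strong activator of NF-kB, averaged 1.84 ± 0.277 CPM in Control and 25.9 ± 11.6 in HMF (SD, n = 4) and rose by 3.82 ± 0.32 on the log2 scale (SE, edgeR adjusted p = 7.84e-06). Tnfsf10, which encodes the death ligand TRAIL, rose by 3.12 ± 0.13. Il7, a lymphocyte survival factor gene, rose by 3.002 ± 0.35, and Il33, an alarmin gene, by 2.40 ± 0.29. The counts of Il7 were 7, 1, 4 and 8 in Control 1 to 4 and 33, 32, 32 and 60 in HMF 1 to 4. With every Control count below 10, Il7 passed the count filter only through HMF, and the size of its fold is uncertain. Il18 rose by 1.06 ± 0.14, and Clcf1, a gp130 family cytokine gene, by 0.89 ± 0.15. Without HMF 4 the rises of Tnf, Il7 and Il33 were 3.48, 2.84 and 2.07. Mif (0.05), Tnfsf9 (0.31) and Kitl (0.86 ± 0.40) were among those that did not pass.

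**Figure D4:**
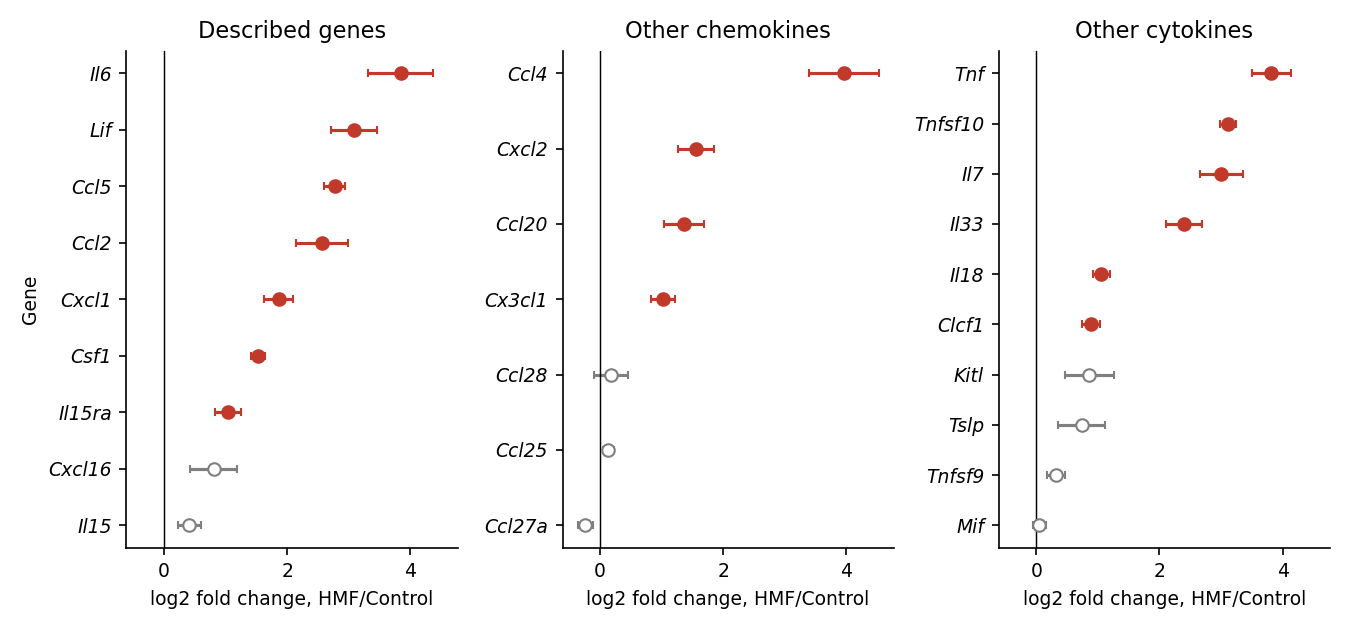
Log2 fold change of HMF over Control with its standard error (edgeR, 4 libraries per group) for the tested genes described here, the tested other chemokine genes and 10 of the tested other cytokine genes. Filled symbols passed an adjusted p below 0.05 and open symbols did not, and all filled symbols lie above 0.

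All 13 genes of shedding, mRNA decay and feedback were tested, of which 9 rose and 2 fell (median log2 fold change 0.30). The shares over all tested genes were 13.7% higher and 13.0% lower. The inhibitors of NF-kB signalling Nfkbia and Tnfaip3, which are also its targets, rose by 1.83 ± 0.13 and 1.73 ± 0.20 on the log2 scale (SE). Zfp36, whose product promotes decay of cytokine mRNAs, rose by 1.68 ± 0.14, its relative Zfp36l1 by 0.73 ± 0.07, and Zc3h12a, which encodes the Il6 mRNA ribonuclease Regnase-1, by 0.77 ± 0.10. Rises of 0.47 for Nfkbiz, 0.30 for Rc3h1, 0.30 for Zc3h12c and 0.29 for the sheddase gene Adam17 were smaller. Adam10, the sheddase gene for Cxcl16 (-0.03), and the feedback inhibitor gene Socs3 (0.03) did not pass. The RNA-binding protein genes Elavl1 and Khsrp fell by 0.20 and 0.17. Those falls and the rise of Zc3h12c were near the threshold. Elavl1 was lost without Control 1 (edgeR adjusted p = 0.0577), without Control 2 (0.0804), without Control 3 (0.0718), without HMF 1 (0.0611), without HMF 2 (0.0995) and without HMF 3 (0.0787). Khsrp was lost without every library except Control 2, and Zc3h12c without Control 3, Control 4, HMF 1, HMF 3 or HMF 4 (edgeR adjusted p = 0.0878 and 0.0954 without HMF 4). Nfkbiz was lost without HMF 3 (0.0522).

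Over the 8 libraries, the established gene with the most similar log2 CPM was Cxcl10 for Ccl5 (Pearson r = 0.9997) and Irf1 for Csf1 (0.9987). It was Traf2 for Ccl2 (r = 0.9986), Zfp36l2 for Cxcl1 (0.998), Csrnp1 for Lif (0.997) and Dnajb4 for Il6 (0.992). For Cxcl16, Il15 and Il15ra it was Taf1a (0.978), Ptges3 (0.977) and Washc4 (0.974). These are the highest of 11040 candidates each and share libraries and, where both genes were called, the group difference. Taf1a (0.23, edgeR adjusted p = 0.229) and Ptges3 (0.18, edgeR adjusted p = 0.0914) did not pass, as Cxcl16 and Il15 did not. Likeness in pattern did not mean likeness in size, since Traf2 rose by 0.49 ± 0.08 and Dnajb4 by 0.62 ± 0.10 on the log2 scale, against 2.56 for Ccl2 and 3.84 for Il6.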

How the data were processed

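Total RNA from 8 B16-OVA samples was extracted with Trizol and polyadenylated RNA was sequenced, per the labels' protocols. The deposited table holds raw read counts per gene and, for the same libraries, the authors' FPKM values. Per the submitters' processing notes, Trimmomatic, HISAT2 2.0.5, HTSeq and DESeq2 were used with build mm10. What each tool did, which annotation was used and whether counting used strand is not stated there. The coordinates in the table were not used.

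Groups came from the sample titles. Counts were scaled by TMM, filtered by filterByExpr (default minimum count 10) and 15082 genes were tested in a model of group alone (edgeR 4.0.16 under R 4.3.3). SE is the size of the log2 fold change divided by the square root of F. Alternatives were RLE and library-size scaling, 2 filters, leaving out each library, a replicate block, DESeq2 1.42.0, limma 3.58.1 with voom, and limma on log2 FPKM. In simulated counts for this comparison (15082 genes), 1.5-fold changes were recovered in 52.2% of 67 genes, 2-fold changes in 82.1% of 67 and 4-fold changes in 100% of 66. Of 169 calls 13 were false. Only those 67, 67 and 66 genes were changed, a far smaller share than the 26.7% called in the data. Both groups were drawn with the same spread for each gene, so recovery in the data may differ. The members and lists were chosen with earlier results of these data known. A result on 1 list gene is not reported here. The text names all members, the called genes of each list and the most similar gene of each tested member. Figures were drawn with matplotlib 3.10.9 (Python 3.11.15).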

Additional observations from a re-analysis of the deposited data

Results flagged for a closer look

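In groups of 4 libraries, a library was marked where its gap to the nearest other exceeded 0.829 of the range (Dixon). Of 82 groups (41 named genes) 8 were marked, and 4 of the 8 were HMF 4. For independent normal values chance marks about 1 in 20. These genes share libraries and some were picked for their likeness to the members, so that rate does not apply here. In HMF 4, Ccl2 was at 16.2 CPM against 4.11 to 6.15 in the other HMF libraries, Cxcl1 at 297 against 143 to 166, Cxcl2 at 26.1 against 10.4 to 12.5, and Il7 at 3.21 against 2.19 to 2.27. HMF 1 was marked for Ccl7 at 0.0685 CPM, which is a single count. Control 1 stood above the other Control libraries for Csf1, at 242 CPM against 223 to 225. Control 2 was low for Zfp36, at 8.67 CPM against 12.5 to 13.2, and Control 3 was low for Traf2, at 40.5 against 42.9 to 43.4.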

How the results depend on the processing

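The 7 rises among the members were called under all 17 alternatives that were run for each, with edgeR, DESeq2 and limma. On log2(FPKM + 1), which compresses low levels, the log2 difference of Ccl2 was 1.69, that of Lif 2.39 and that of Il6 1.87. The count of called members was 7 to 8 over the leave-one-out fits, the eighth being Il15 without Control 2. Cxcl16 passed under none of 16 alternatives. The count of all called genes was 3140 to 3804 without single libraries. Of 13 genes of shedding, mRNA decay and feedback, the 2 falls became 0 with no count filter, 0 with the replicate block and 0 to 1 without single libraries, and the cause was not tested. The log2 ratio difference of Ccl5 to Ccl2 ranged from 0.24 to 0.65 without single libraries, and that of Il15ra to Il15 from 0.52 to 0.75. The ratio of Ccl7 to Ccl2 was not computed, since Ccl7 had 1 count. Same-numbered libraries did not deviate together (r = -0.246, -0.076, 0.201 and -0.293), so the numbers were not taken as pairs. With the replicate block 1463 genes rose and 1322 fell (2785 together), and all 7 members stayed called. Of the 679 results for single named genes under the alternatives, 649 kept direction and call, 28 lost the call, 2 gained it and none changed sign. Depth limits Ccl7, Cxcl16 and the Control levels of Il6, Ccl2, Ccl4 and Il7.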
